A study of Homo sapiens with 26 samples.

Results

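HCT116 cells carrying an arginine-to-glutamine version of the RNA-binding protein IGF2BP1 (RQ) were compared with cells carrying the wild-type protein (WT), both without added stress. The members are the 3 RQ and 3 WT libraries from PBS-treated control cells, 6 of the 26 libraries of the series, and they were chosen by genotype and treatment alone. HCT116 is a human colorectal carcinoma line that makes almost no IGF2BP1 of its own. Both populations carried a lentiviral mCherry-IGF2BP1 transgene under the hPGK promoter, together with IGF2BP2 KO, IGF2BP3 KO and Tet-OsTIR1-PURO. In RQ, arginines of the first disordered linker were replaced by glutamine. The cells were sorted into a narrow window of mCherry fluorescence, so each genotype is 1 sorted population and not a set of independent clones, and the 3 libraries of a genotype came from separately plated dishes. Other libraries used for comparison were RQ and WT cells after 500 µM sodium arsenite for 2 h, control cells with the S181E or Y396E transgene on the same background, and 1 control library of HCT116 cells without these changes, called parental here.

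IGF2BP1 binds mRNAs through RRM and KH domains that are joined by flexible linkers, and it is known for setting the stability, translation and localisation of its targets and for gathering with them in RNP granules. Several of the genes described below, PCK2, SLC7A11, PSAT1 and TRIB3 among them, belong to a program that cells use when amino acids run short or protein synthesis is disturbed. In that program, the integrated stress response, kinases phosphorylate the initiation factor eIF2, translation of most mRNAs falls, and translation of the transcription factor ATF4 rises. ATF4, often paired with a C/EBP protein, then acts on genes for amino acid synthesis, amino acid import, tRNA charging and feedback. This is background on the genes, not a cause given for the differences below.

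The letters that ATF4 and C/EBP proteins recognise together are known, so the start regions of the genes were searched for TGATGNAA on both strands. The windows were RefSeq promoters in GRCh38.p14 that run from 250 bases before to 50 bases after a gene's start. Of the 25 genes that rose in RQ and belong to the amino acid and stress response lists described below, 21 had a promoter in the table and 10 of these (47.6%) held the motif. The share was 16.1% of 31 list members that were not called, 5.41% of 111 other genes that rose, 1.87% of 107 genes that fell, and 4.46% of all 27305 genes of the table. Among the 7496 tested genes with a promoter in the table it was 2.37%, and among all 54 tested list members with one it was 29.6%. The lists hold genes of amino acid and stress programs and were chosen with earlier results of these data known. A higher share in them was therefore not a test. A match is a description of letters and not a binding site. The stretches around the 10 matches are shown because they belong to members that rose, with the motif or its reverse complement in capitals, read along the gene's strand.
AARS1 at chr16:70289666-70289713, minus strand: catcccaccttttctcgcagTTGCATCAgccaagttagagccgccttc
CARS1 at chr11:3057398-3057445, minus strand: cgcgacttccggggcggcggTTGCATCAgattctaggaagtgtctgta
GARS1 at chr7:30594825-30594872, plus strand: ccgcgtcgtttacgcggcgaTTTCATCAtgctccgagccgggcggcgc
MARS1 at chr12:57488044-57488091, plus strand: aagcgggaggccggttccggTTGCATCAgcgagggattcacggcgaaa
GOT1 at chr10:99430795-99430842, minus strand: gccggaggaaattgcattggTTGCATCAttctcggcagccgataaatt
SLC1A5 at chr19:46784884-46784931, minus strand: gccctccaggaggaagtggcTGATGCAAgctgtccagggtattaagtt
SLC38A1 at chr12:46266493-46266540, minus strand: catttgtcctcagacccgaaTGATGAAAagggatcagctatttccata
SLC3A2 at chr11:62881716-62881748, plus strand: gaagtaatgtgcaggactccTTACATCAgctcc
CEBPG at chr19:33374051-33374098, plus strand: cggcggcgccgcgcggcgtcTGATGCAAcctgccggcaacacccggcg
JDP2 at chr14:75427986-75428033, plus strand: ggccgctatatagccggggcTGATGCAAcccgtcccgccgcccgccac
The full 8 letters TTGCATCA, or TGATGCAA on the other strand, stood in 7 of these windows. In CARS1, MARS1, SLC38A1 and JDP2 the match began within 16 bases before the annotated start. Of the 13 of the 15 largest rises that had a promoter in the table, CARS1 alone held the motif (7.69%). PCK2, PSAT1 and TRIB3 had no match, which says only that these letters are not within these windows. ATF3, a member of the stress response list that fell, held it too.

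Library totals ran from 30848859 to 38635034 counts and 20910 to 21888 genes had counts. Between 89.47% and 91.72% of counts fell on protein-coding genes. The mitochondrial genome took 23.37%, 26.87% and 21.09% of the counts in WT replicates 1 to 3 and 26.62%, 27.91% and 23.14% in the RQ libraries of the same numbers. It was higher in RQ in each of the 3 pairs, and its part in the results was not tested beyond the fit without mitochondrial genes given in the closing section. Of the 9 tested epithelial and colorectal markers none was called. EPCAM, KRT8, KRT18 and KRT19 were between 421.9 and 1035 CPM (a gene's count scaled to its library's TMM-adjusted total, as edgeR's cpm function gives it) in WT replicate 1, while CDX1, CEACAM5, CEACAM6 and GPX2 were at 0 counts there. None of 11 fibroblast and 10 blood cell markers passed the filter on low counts.

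The transgene was read first because it checks the labels. IGF2BP1 (ENSG00000159217.10, chromosome 17, 48997385 to 49056145 in hg38) was at 11.1, 10.5 and 14.8 CPM in the WT libraries and at 15.25, 11.99 and 15.51 CPM in the RQ libraries, against 0.346 CPM in the parental library. The groups overlapped, since WT replicate 3 lay above RQ replicate 2. On the log2 scale RQ exceeded WT by 0.25 ± 0.09 (SE; edgeR, adjusted p of 0.0482), and by 0.48, 0.19 and 0.08 in the 3 pairs of like number. The change was under the fold threshold and the gene was not called. Gene counts do not separate the mutant sequence from the wild-type sequence, so they show that a transgene was present and not which. The transcripts of the disrupted paralogs were still counted, IGF2BP2 at 79.5 to 83.2 CPM in WT and 83.9 to 90.9 in RQ, and IGF2BP3 at 116.6 to 120.3 in WT and 126 to 134.6 in RQ. Neither was called. The RQ minus WT change was 0.12 ± 0.05 for IGF2BP2 (adjusted p of 0.0839, edgeR) and 0.16 ± 0.05 for IGF2BP3 (adjusted p of 0.00746, edgeR), which was under the fold threshold.

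Of 9092 protein-coding genes tested, 304 (3.34%) were called, which required an adjusted p under 0.05 and a fold change above 1.2. The calls were 175 higher in RQ (1.92% of tested genes) and 129 lower (1.42%). Most changes were small. Only 16 calls exceeded a fold of 1.5, 13 higher and 3 lower, and 3 exceeded a fold of 2, the rises of PCK2, SLC7A11 and PSAT1. The median change of all tested genes was -0.01. The 3 RQ libraries did not overlap the 3 WT libraries in 1562 genes (17.2%), and of the 304 called genes 259 were both free of overlap and of 1 sign in the 3 pairs. The fit used the replicate number as a block. Without it 68 genes were called, 79.4% of them higher, and all 68 were among the 304. With library totals in place of TMM scaling, 24.9% of 397 calls were higher against 57.6% of the 304, so the balance of small rises and falls depended on the scaling. In bulk libraries fewer cells expressing a gene and less RNA per cell cannot be told apart. Called genes lay on every autosome and on X, with autosomes ranging from 1.37% of tested genes on chromosome 13 to 5.88% on chromosome 21.

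The enzymes that make serine and pass on its carbon rose in part. PSAT1, the aminotransferase of the serine pathway, was at 96.8, 70.3 and 82.5 CPM in WT and at 188.7, 179.1 and 209.8 CPM in RQ. Every RQ library lay above every WT library, and the rise was 1.22 ± 0.05 on the log2 scale (adjusted p of 2.21e-110, edgeR), with 0.98, 1.35 and 1.35 in the 3 pairs. PHGDH, which commits glucose carbon to serine, was at 51.7, 34.4 and 46.8 CPM in WT and 68.1, 58.9 and 73.6 in RQ, a rise of 0.61 ± 0.05. MTHFD2, the mitochondrial folate enzyme, rose from 399.2 to 445.6 CPM in WT to 570.4 to 616.9 in RQ, by 0.48 ± 0.04. These were the 3 calls among 10 tested members of the serine and one-carbon list, and they were also called without the block. PSPH, the last enzyme of serine synthesis, was higher by 0.19 ± 0.05 and SHMT2 by 0.09 ± 0.05, neither called. Thymidylate synthase (TYMS) was the lowest member at -0.11 ± 0.04. The list's median was 0.16.

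Among the other enzymes of amino acid metabolism, PCK2 had the largest rise of all tested genes. PCK2 (ENSG00000100889.12, chromosome 14, 24094053 to 24104130), the mitochondrial PEP carboxykinase, was at 16.3, 11.9 and 14.1 CPM in WT and 39.9, 35.5 and 42.1 CPM in RQ. The change was 1.48 ± 0.07 (adjusted p of 1.8e-76, edgeR), and 1.30, 1.58 and 1.58 in the 3 pairs. GPT2, the mitochondrial alanine aminotransferase, was at 34.4 to 39.9 CPM in WT and 56.6 to 65.2 in RQ, and rose by 0.71 ± 0.06. GOT1, the cytosolic aspartate aminotransferase, rose by 0.30 ± 0.05. These were the 3 calls of 10 tested members, with a list median of 0.17 and 6 members above 0, and GOT1 lost its call without the block. PYCR1 of proline synthesis was higher by 0.20 ± 0.04, below the threshold, and CTH of transsulfuration by 0.36 ± 0.14, with an edgeR adjusted p of 0.0648. ASNS, asparagine synthetase, did not pass the filter. Its raw counts were 20, 5 and 15 in WT and 35, 28 and 41 in RQ, and it was not tested.

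The amino acid transporters held the second largest rise. SLC7A11 (ENSG00000151012.13, chromosome 4, 138164097 to 138242349), which imports cystine in exchange for glutamate, was at 37.9, 29.9 and 27.5 CPM in WT and 89.1, 82.9 and 86.6 CPM in RQ. Every RQ library lay above every WT library, and the rise was 1.45 ± 0.05 (adjusted p of 1.1e-114, edgeR), with 1.25, 1.47 and 1.66 in the 3 pairs. Its heavy-chain partner SLC3A2 was at 275.1, 268 and 219.3 CPM in WT and 384, 345.2 and 305.4 in RQ, a rise of 0.45 ± 0.04. SLC7A5, the large neutral amino acid carrier that shares this heavy chain, was the most abundant of the group, at 1124 to 1325 CPM in WT and 1819 to 1872 in RQ, and rose by 0.58 ± 0.04. The glutamine carriers SLC1A5 and SLC38A1 rose by 0.48 ± 0.04 and 0.28 ± 0.04. In all 5 of 12 tested transporters were called, all higher, and the median was 0.20. Without the block SLC7A11, SLC7A5 and SLC1A5 were called. The arginine carrier SLC7A1 stood just under the fold threshold at 0.26 ± 0.05, while SLC38A2 was at -0.02 ± 0.04. The mitochondrial glutamate carrier SLC25A22 was the lowest at -0.21 ± 0.05. A filter of 1 CPM admitted 3 more members, which were all called there. SLC43A1 was at 2.98, 3.05 and 3.58 CPM in WT and 7.66, 7.12 and 9.18 in RQ (1.33 ± 0.14), SLC1A4 rose by 1.04 ± 0.14 and SLC6A9, a glycine carrier, by 0.82 ± 0.12.

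**Figure D1:**
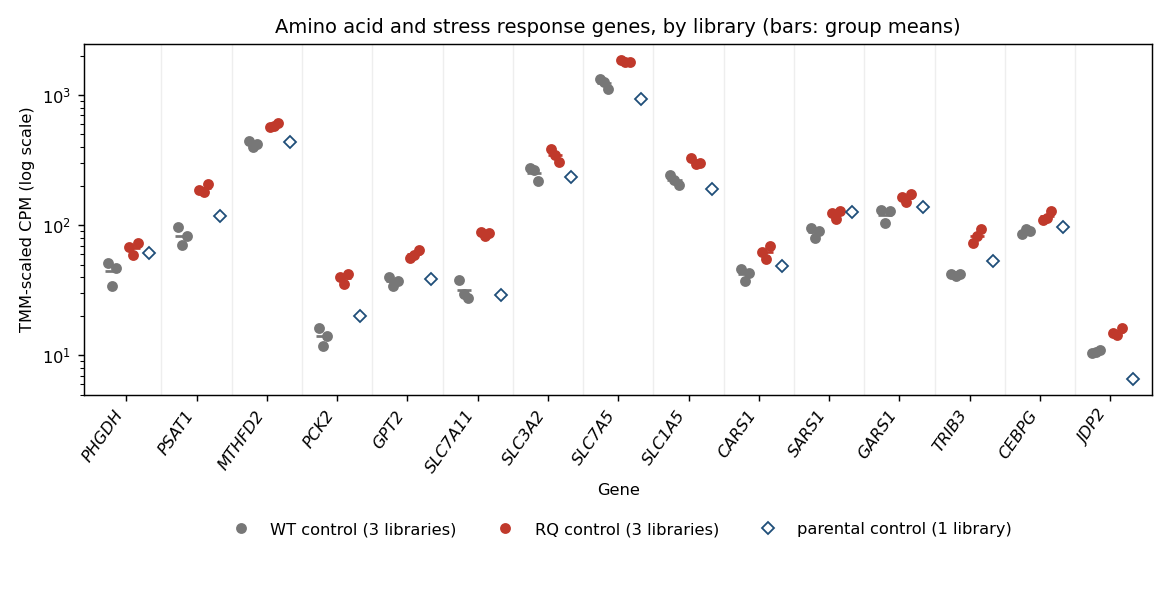
TMM-scaled CPM on a log axis for 15 called genes of the amino acid and stress response lists, with 1 point per library (grey WT control, red RQ control, open diamond the parental control library) and bars at group means. For each of the 15 genes the 3 RQ libraries lie above the 3 WT libraries; PCK2 rises from 11.9 to 16.3 CPM in WT to 35.5 to 42.1 CPM in RQ.

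The cytosolic and mitochondrial lists of enzymes that charge tRNAs differed in their counts. Of 20 tested cytosolic synthetases 7 were called, all higher, with a median of 0.17, and of 13 tested mitochondrial synthetases none was, with a median of 0.05, while 2 were called lower with library totals. Over all tested genes 3.34% were called, so none of 13 lies near that share, and the difference between the lists was not tested. CARS1, which charges cysteine tRNA, was at 46.5, 37.5 and 43.4 CPM in WT and 62.7, 55.2 and 69.8 in RQ and rose by 0.57 ± 0.05. SARS1 for serine rose by 0.47 ± 0.05, GARS1 for glycine by 0.44 ± 0.05, YARS1 for tyrosine by 0.41 ± 0.05, AARS1 for alanine by 0.39 ± 0.05 and MARS1 for methionine by 0.39 ± 0.05. WARS1 for tryptophan passed the threshold narrowly at 0.26 ± 0.05. The AARS1 groups overlapped at 38.2 to 50.4 CPM in WT and 49.7 to 64.6 in RQ, because both libraries numbered 2 were low, although each RQ library exceeded the WT library of its number. The other cytosolic members were not called. TARS1 and NARS1 were at 0.21 ± 0.05 and 0.19 ± 0.05, and RARS1, the lowest, at -0.20 ± 0.05. Without the block 5 of the 7 were called, the exceptions being AARS1 and WARS1.

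**Figure D2:**
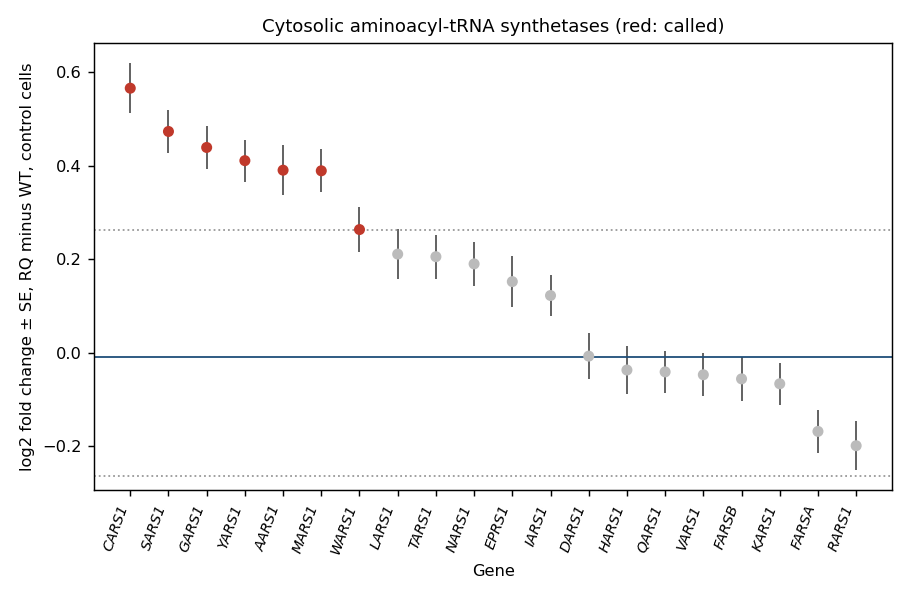
Log2 fold change ± SE (RQ minus WT, control cells, n = 3 and 3 libraries) of the 20 tested cytosolic aminoacyl-tRNA synthetases, red where called, with the median of all tested genes as a blue line and the fold threshold dotted. Members run from 0.57 for CARS1 to -0.20 for RARS1, and of the 7 called members WARS1, at 0.26, lies barely above the upper dotted line.

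The factors and effectors of the stress response did not move as a block. TRIB3 (ENSG00000101255.13, chromosome 20, 362835 to 397559), a pseudokinase that dampens ATF4 signalling, was at 42.3, 40.9 and 42.6 CPM in WT and 72.6, 83.4 and 93.3 CPM in RQ. It rose by 0.99 ± 0.05 (adjusted p of 2.36e-64, edgeR), and by 0.80, 1.03 and 1.14 in the pairs. CEBPG, a C/EBP partner of ATF4, was at 85.6 to 93.1 CPM in WT and 109.2 to 128.2 in RQ and rose by 0.40 ± 0.05. JDP2, an AP-1 repressor, rose from 10.5 to 11.1 CPM to 14.3 to 16.4 CPM, by 0.51 ± 0.09. The translation repressor EIF4EBP1 rose by 0.38 ± 0.04, the secreted proteins GDF15 and STC2 by 0.32 ± 0.04 and 0.29 ± 0.05, and the tRNA exporter XPOT by 0.30 ± 0.04. The RNA of ATF4 itself stood at 782.8, 833.6 and 800.8 CPM in WT and 778.7, 802.1 and 823.6 in RQ, a difference of 0.00 ± 0.04. The 2 members that fell were ATF3, a repressor of the same family, from 40.9 to 45.2 CPM to 29.0 to 39.3 CPM (-0.33 ± 0.06), and SESN2, an inhibitor of mTORC1, from 13.4 to 15.6 CPM to 9.5 to 12.7 CPM (-0.30 ± 0.09). DDIT3, the factor CHOP, was at 0.25 ± 0.10 with an edgeR adjusted p of 0.0812. The list thus held 7 rises and 2 falls in 16 tested members, with a median of 0.24, and without the block 5 rises and no fall. NIBAN1, below the main filter, was at 1.07 to 1.43 CPM in WT and 2.31 to 3.01 in RQ and was called in the fit with the 1 CPM filter (1.08 ± 0.23), while CHAC1 was not (0.08 ± 0.20).

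Few genes next to this response were called. Over all tested genes 3.34% were called, so 1 call or none in lists of this size lies near that share. Of 12 eIF2 kinase and eIF2 or eIF2B subunit genes only EIF2S2, the beta subunit of eIF2, was called (0.27 ± 0.04), and not without the block. None of 20 ER chaperone and unfolded protein response genes was called, with a median of -0.01 and 8 above 0, a count that was 4 without replicate 1 and 16 without replicate 2. The ER stress factors ATF6 (0.25 ± 0.05) and XBP1 (0.25 ± 0.05) were just under the fold threshold, and ATF6 was called without replicate 2 and XBP1 without replicate 1. HSPA5, the ER chaperone BiP, was at 443.5, 412 and 354.9 CPM in WT and 543.6, 407.8 and 392.8 in RQ (0.15 ± 0.04), with overlapping groups. None of 17 tested genes on the NRF2 target list was called either, with a median of -0.04. SLC7A11, also described as an NRF2 target, was counted on the transporter list. No p53 target of 14, no gene of the hypoxia and glycolysis list of 15 and no DNA replication gene of 18 was called, with medians of -0.04, -0.05 and -0.09. The hypoxia list's median was -0.17 without replicate 1, where P4HA1 was called lower, and 0.01 without replicate 3, where SLC2A1 was called higher. All 38 tested large-subunit ribosomal protein genes lay above 0, by a median of only 0.05, and none was called; with library totals 19 of them lay above 0.

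**Figure D3:**
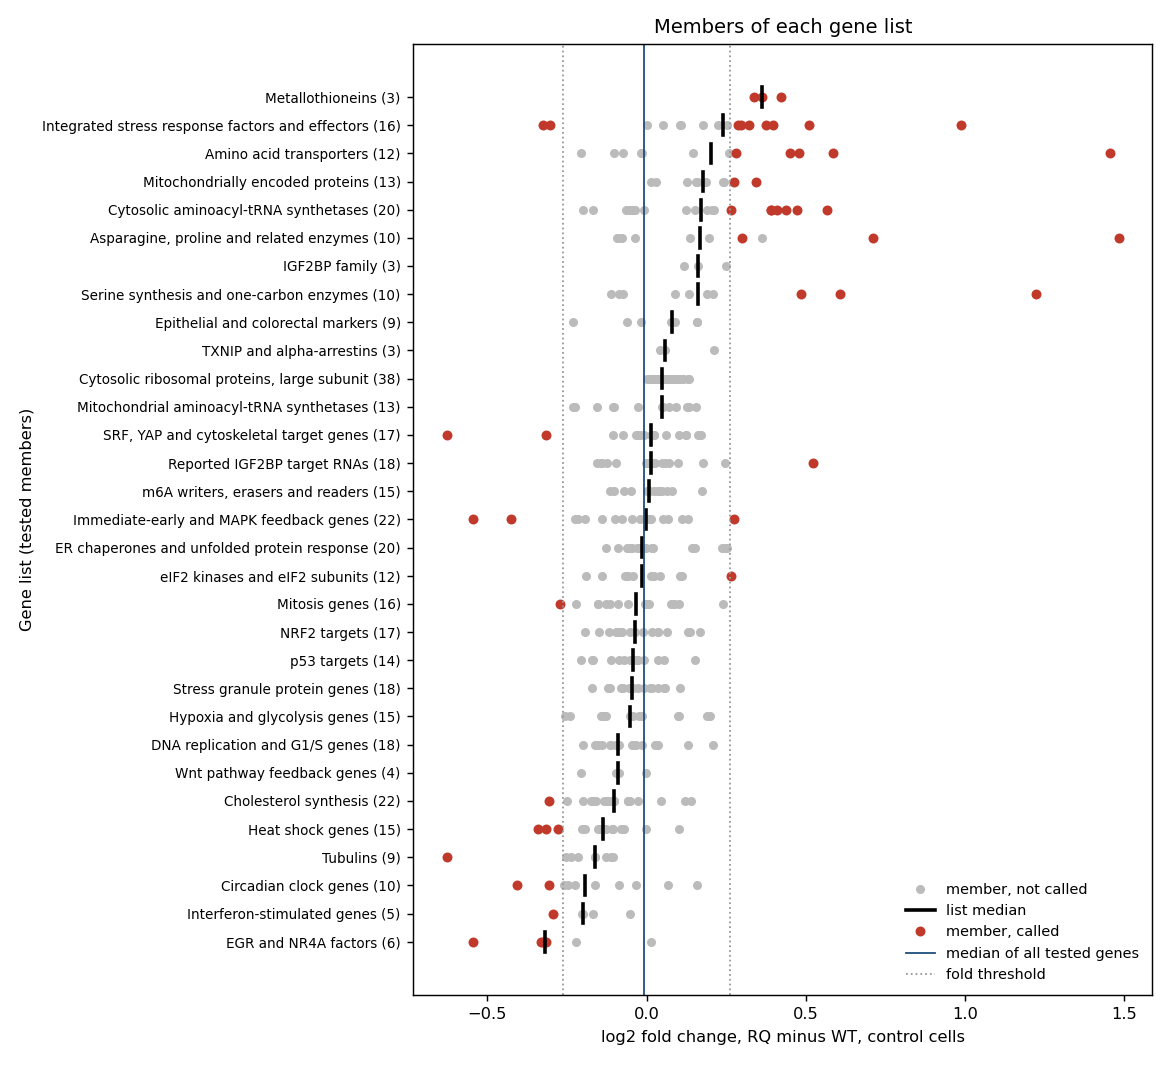
Log2 fold change (RQ minus WT, control cells) of each tested member of the gene lists, red where called, with each list's median as a black bar, the median of all 9092 genes (-0.01) as a blue line and the fold threshold dotted. The stress response, transporter, cytosolic synthetase and amino acid enzyme lists reach to the right, with medians from 0.16 to 0.24. The metallothionein list has the highest median, 0.36. The tubulin, clock gene, interferon-stimulated, and EGR and NR4A lists lie to the left at -0.16, -0.19, -0.20 and -0.32.

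Among the 15 largest rises free of overlap, 8 belong to the lists above and 7 do not. ACSL5, which activates long-chain fatty acids, was at 92.9, 89.1 and 92.7 CPM in WT and 160.1, 147.5 and 134.5 in RQ, a rise of 0.69 ± 0.05. FAM241A rose by 0.71 ± 0.06, from 35.5 to 38.7 CPM to 55.7 to 62.7 CPM. UPP1, uridine phosphorylase, was at 12.5 to 14.3 CPM in WT and 18.4 to 23.3 in RQ (0.67 ± 0.08). RBCK1, a subunit of the linear ubiquitin ligase, was at 81.1 to 83.0 CPM in WT and 115.4 to 135.7 in RQ (0.65 ± 0.05). It lies beside TRIB3 on the same strand of chromosome 20 (408078 to 432139). TUBE1, the epsilon tubulin, GRB10, an adaptor that restrains insulin signalling, and BBS10, a chaperonin-like cilium protein, rose by 0.61 ± 0.06, 0.59 ± 0.07 and 0.59 ± 0.07. In each of the 15 genes except ACSL5 the difference was smallest between the libraries numbered 1, and in ACSL5 between those numbered 3.

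Of 18 tested RNAs that have been reported as IGF2BP targets, 1 was called, against 3.34% of all tested genes. HMGA2, a chromatin architectural protein, was at 312.5, 351.4 and 305.6 CPM in WT and 448.2, 497.9 and 436.7 in RQ and rose by 0.52 ± 0.04, also without the block. MYC was at 513.2 to 529.5 CPM in WT and 518.5 to 572.1 in RQ (0.07 ± 0.04), ACTB at 0.01 ± 0.05 and CTNNB1 at -0.14 ± 0.05. The median of the list was 0.01. None of 18 stress granule protein genes and none of 15 m6A writers, erasers and readers was called, with medians of -0.04 and 0.01. In lists of this size these 3 counts lie near the share over all tested genes.

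Metallothioneins and mitochondrially encoded genes were listed after their values had been seen. MT2A, which binds zinc and copper, was at 915.2, 1074 and 871.5 CPM in WT and 1191, 1332 and 1127 in RQ, and rose by 0.36 ± 0.04. MT1E and MT1X rose by 0.34 ± 0.04 and 0.42 ± 0.07, so that the 3 tested metallothioneins were called, though not without the block. Of the 13 mitochondrially encoded proteins, all had values above 0, from 0.02 for MT-ND2 to 0.34 ± 0.05 for MT-ND6, and MT-ND6 and MT-ATP8 were called. MT-ND6 was at 270.5, 251.5 and 173.8 CPM in WT and 386.6, 259.5 and 235 in RQ, with overlap. With library totals 11 of the 13 lay above 0. Neither was called without the block, in DESeq2, in the fits of 24 libraries or without replicate 1, and 4 of the 13 were called without replicate 2.

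With TMM scaling the genes that fell were fewer and weaker than those that rose, while with library totals most calls were falls. ZBED2, a zinc finger repressor, was at 10.8, 10.1 and 12.3 CPM in WT and 5.35, 7.36 and 6.20 CPM in RQ and fell most (-0.81 ± 0.11, adjusted p of 1.5e-10 in edgeR). The parental library held 50.2 CPM. TUBA4A, an alpha tubulin, was at 16.6, 14.6 and 15.0 CPM in WT and 10.9, 8.43 and 10.4 CPM in RQ (-0.63 ± 0.09), and the small GTPase GEM at 24.4, 21.6 and 24.1 CPM in WT and 15.5, 14.1 and 15.5 in RQ (-0.63 ± 0.08). The 3 pair differences of GEM were -0.63, -0.61 and -0.62. TANC1 fell by 0.55, ITPRIP by 0.54, NEURL1B by 0.54, WNT9A, a Wnt ligand, by 0.52, MFSD2A, a carrier of DHA lysolipids, by 0.46 and SLC2A6, a hexose carrier, by 0.43. TANC1 was at 7.55 to 8.02 CPM in WT and 4.63 to 5.85 in RQ, and NEURL1B at 6.68 to 8.17 and 4.28 to 6.06. Both were under 10 CPM in all 6 libraries and passed the filter through other libraries of the series. NEURL1B, MFSD2A and SLC2A6 lost the call without the block, and NEURL1B also without replicate 1 (-0.42). All 9 tested members of the tubulin list, which does not hold TUBE1, lay below 0, with a median of -0.16, and TUBA4A was the only call. With library totals 3 of the 9 were called. Over all tested genes 1.42% were called lower with TMM scaling.

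Immediate-early transcription factors were lower in RQ in some of their members. EGR1 was at 110.8, 104.7 and 123.5 CPM in WT and 81.5, 69.9 and 79.2 in RQ without overlap, a log2 change of -0.55 ± 0.05, and it was called under all 21 alternatives. FOSB was at 30.8, 17.5 and 27.9 CPM in WT and 20.5, 13.2 and 22.6 in RQ (-0.43 ± 0.07). Its groups overlapped because both libraries numbered 2 were low. In the list of 22 tested immediate-early and MAPK feedback genes the calls were these 2 falls and a rise of ETV5 (0.27 ± 0.06), with a median of 0.00, and without the block EGR1 was the only call. The share called over all tested genes was 3.34%. In a list of EGR and NR4A factors made after the values had been seen, EGR1, EGR3 (-0.32 ± 0.10), NR4A1 (-0.33 ± 0.05) and NR4A3 (-0.31 ± 0.11) were called of 6 tested, and EGR1 alone without the block. FOS, at 4.21 to 6.12 CPM in WT and 3.36 to 5.55 in RQ, was not called. The clock genes PER1 and NR1D1, listed in the same way, fell from 35.9 to 52.5 CPM to 26.5 to 40.0 CPM (-0.41 ± 0.06) and from 32.9 to 38.5 CPM to 25.7 to 31.8 CPM (-0.30 ± 0.06), and neither was called without the block. With library totals 5 of the 10 tested clock genes were called lower.

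**Figure D4:**
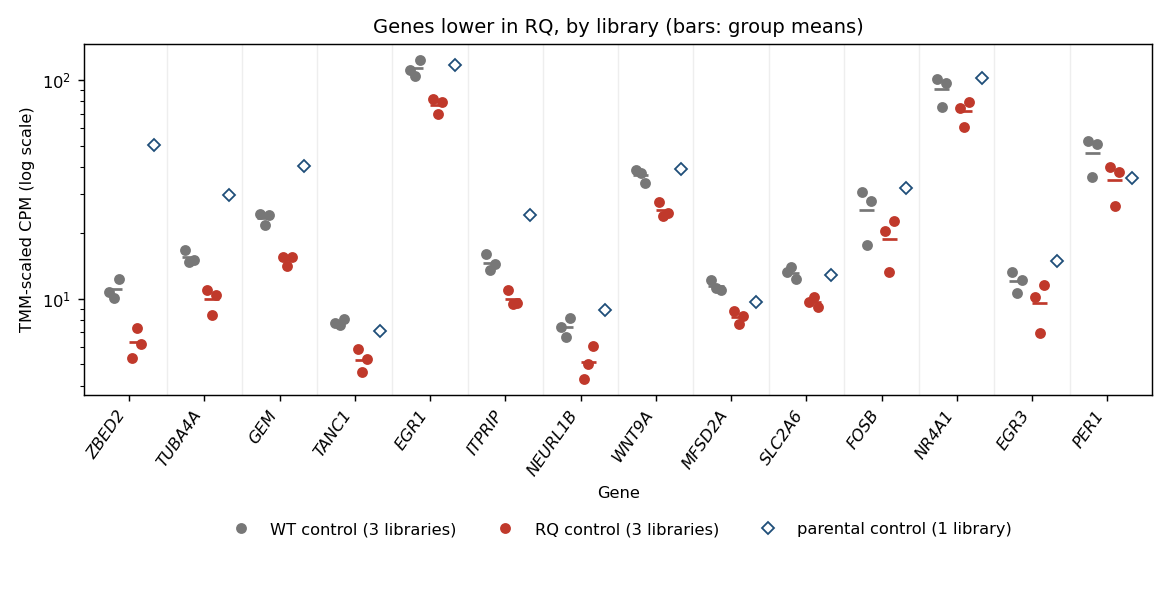
TMM-scaled CPM on a log axis for the 10 largest falls free of overlap and for FOSB, NR4A1, EGR3 and PER1, with 1 point per library (grey WT control, red RQ control, open diamond the parental control library) and bars at group means. In FOSB, NR4A1, EGR3 and PER1 the WT and RQ points overlap, and ZBED2 has 50.2 CPM in the parental library against 5.35 to 12.3 CPM in the other 6.

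Over all tested genes 3.34% were called, 1.42% lower, and 4265 of 9092 lay above 0. Single calls in the lists of this paragraph, or none, are therefore not read as a result about those lists. Of 15 tested heat shock genes 14 lay below 0, with a median of -0.14, and 3 were called. HSPA8, the constitutive HSC70 chaperone, was at 786.9, 711.1 and 772.2 CPM in WT and 657.1, 578.9 and 577.4 in RQ (-0.32 ± 0.04). CHORDC1, an HSP90 co-chaperone, changed by -0.34 ± 0.05 and HSPA4L by -0.28 ± 0.10, and CHORDC1 alone was called without the block. Of 22 cholesterol synthesis genes 19 lay below 0 with a median of -0.10, and INSIG1, which retains SREBP in the ER, was the only call (-0.31 ± 0.05). F3, tissue factor, (-0.32 ± 0.04) and GEM were the 2 calls of 17 SRF and YAP targets, CDC20 (-0.27 ± 0.05) the only call of 16 mitosis genes, and OAS3 (-0.29 ± 0.08) the only call of 5 interferon-stimulated genes. INSIG1, F3, CDC20 and OAS3 all lost their calls without the block. Of 4 tested Wnt feedback genes none was called.

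The arsenite libraries of the same populations share no library with the control comparison and show whether the differences were there under stress too. In arsenite 254 genes (2.79%) were called between RQ and WT, 183 higher (2.01%) and 71 lower (0.781%). With library totals 47% of the calls were higher against 72%. Of the 175 genes that rose in control cells, 162 had the same direction in arsenite, 86 were called higher there and 0 were called lower. Of the 129 that fell, 107 had the same direction, 15 were called lower and 3 higher. Over all tested genes 4166 of 9092 lay above 0 in arsenite and 4265 in control cells. All 15 of the largest rises were higher in RQ in each of the 3 arsenite pairs. PCK2 was at 30.4 ± 1.16 CPM in WT and 89.4 ± 22.3 CPM in RQ after arsenite (SD, n = 3), with pair differences of 1.19, 1.61 and 1.84. SLC7A11 was at 24.9 ± 1.46 and 61.0 ± 8.83 CPM, with 1.21, 1.17 and 1.52. Of the stress response list 13 of 16 members were called higher in arsenite and none lower, with a median of 0.70. There ATF4 was at 641.1 ± 7.71 CPM in WT and 837.4 ± 45.9 in RQ, with an RQ minus WT log2 change of 0.40, and SESN2, which had fallen in control cells, at 60.9 ± 2.44 and 136.4 ± 23.0 CPM (1.18).

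Of the 10 largest falls, GEM, EGR1 and ITPRIP were higher in RQ in all 3 arsenite pairs, and SLC2A6 in 1. The others were lower in all 3, among them ZBED2 at 2.78 ± 0.185 CPM in WT and 1.55 ± 0.339 in RQ (SD, n = 3). EGR1 in arsenite was at 2352 ± 163.8 CPM in WT and 2413 ± 158.5 CPM in RQ. The tests of the differences between treatments are given in the closing section.

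**Figure D5:**
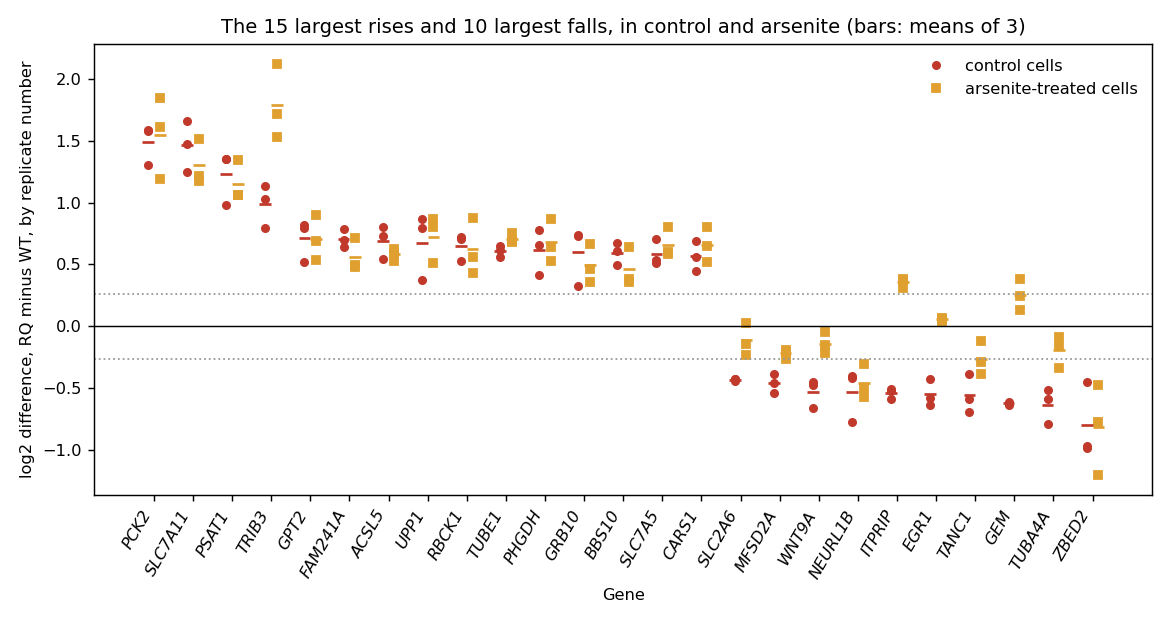
Log2 difference between RQ and WT libraries of the same replicate number for the 15 largest rises and 10 largest falls, in control cells (red circles) and arsenite-treated cells (orange squares), with bars at the means of 3 and dotted lines at the fold threshold. The 15 rises lie above 0 in all arsenite pairs, and among the falls ITPRIP, EGR1 and GEM lie above 0 in arsenite.

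RQ was also set beside the 2 other mutants without the WT libraries. Against S181E 3738 genes (41.1%) were called, 1779 higher in RQ (19.6%) and 1959 lower (21.5%), and against Y396E 3522 (38.7%), 1764 higher (19.4%) and 1758 lower (19.3%). With library totals the share of higher calls fell from 47.6% to 15.3% and from 50.1% to 16.9%. The 326 tested genes on chromosome 8 had median RQ minus mutant changes of 0.43 in both, against 0.01 for RQ minus WT and -0.04 and -0.02 for the other tested genes against S181E and Y396E. IGF2BP1 was called lower in RQ against S181E (-0.38 ± 0.08) but not against Y396E (-0.19 ± 0.09), and IGF2BP3 against both (-0.28 ± 0.04 and -0.31 ± 0.05). The mitochondrial genome took 23.14% to 27.91% of counts in RQ, 11.66% to 14.26% in S181E and 12.35% to 17.15% in Y396E. All 13 mitochondrially encoded genes were called higher in RQ against each mutant. The part of these differences in the comparisons was not tested. PCK2, at 15.9 ± 0.43 CPM in S181E and 15.8 ± 1.17 in Y396E against 39.2 ± 3.36 in RQ (SD, n = 3), was higher in RQ by 1.31 ± 0.07 and 1.32 ± 0.08. SLC7A11 was higher by 0.85 ± 0.05 and 0.96 ± 0.06, PSAT1 by 0.86 ± 0.04 and 0.92 ± 0.05 and TRIB3 by 0.99 ± 0.05 and 1.06 ± 0.06. PHGDH, in contrast, was at 74.2 ± 4.07 CPM in S181E and 75.8 ± 4.84 in Y396E, and was not called in RQ against either (-0.15 ± 0.05 and -0.17 ± 0.06). UPP1 was at 20.6 ± 1.46 CPM in S181E and 20.6 ± 1.79 in Y396E against 21.1 ± 2.48 in RQ. It was not called against either (0.04 ± 0.07 and 0.04 ± 0.09). The others of the 15 largest rises were called higher in RQ against both mutants. Of the 10 largest falls, ZBED2, TUBA4A, TANC1, ITPRIP, NEURL1B and MFSD2A were called lower in RQ against both. EGR1 (0.14 ± 0.05 and 0.08 ± 0.06) and SLC2A6 were not called against either. GEM (1.05 ± 0.10 and 1.09 ± 0.10) and WNT9A (0.76 ± 0.07 and 0.59 ± 0.08) were called higher in RQ. Mean CPM of EGR1, SLC2A6, GEM, WNT9A and ITPRIP was below WT in both mutants, and that of the other falls above WT. Of the 20 cytosolic synthetases 1 was called higher in RQ against each mutant, while 7 were lower against S181E and 6 against Y396E. GARS1 was among those not called, at 0.16 ± 0.04 and 0.17 ± 0.05. These comparisons share the RQ libraries with the comparison with WT and are not independent of it.

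The parental library gives a further level for each gene, from 1 library and without a test. No matching counts were made over all tested genes, so the counts below are not a result about the called genes. Of the 175 genes called higher in RQ, 67 were above all 3 WT libraries in the parental cells and 40 were within or above the RQ range. PCK2 had 20.1 CPM there, PSAT1 118.6 and TRIB3 52.9, between WT and RQ, and SLC7A11 had 29.1, within the WT range. ACSL5 had 156.7, UPP1 33.8, SARS1 126.9 and GOT1 95.3, within or above the RQ range. Of the 129 called lower, 42 were below all WT libraries in the parental cells and 29 within or below the RQ range, and TUBA4A (29.7 CPM) and GEM (40.3 CPM) were above WT there.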

How the data were processed

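Poly(A) RNA came from clarified lysates kept as the input of an immunoprecipitation, and libraries were strand-specific. The authors aligned single reads to hg38 with STAR 2.7.11b, and deposited raw gene counts from featureCounts 2.0.6 with GENCODE 46. Symbols came from GENCODE 44 (62541 of 63086 identifiers, 99.14%).

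Protein-coding genes above 10 CPM in 12 or more of the 24 transgenic libraries were tested in edgeR 4.0.16 (R 4.3.3) by quasi-likelihood, with TMM scaling, the replicate number as a block and Benjamini-Hochberg adjustment over 9092 genes. Calls needed an adjusted p under 0.05 and a fold above 1.2 (0.26 on the log2 scale). The study's methods state no block. It was used because deviations from the group mean correlated between like-numbered RQ and WT libraries (r of 0.30, 0.53 and 0.47, each the highest for its library). It left 2 residual degrees of freedom, and the spread was largely shared across genes (median prior degrees of freedom 948), so small p-values rest on that sharing. The SE given with a log2 change was calculated from that change and its F value, and rests on it too. In 12 called genes, SLC7A11 (0.12 against 0.05) and PSAT1 (0.12 against 0.05) among them, the SE of the 3 pair differences was over 2 times as large. The median ratio over called genes was 0.886. In the arsenite fit of RQ against WT the sharing was complete (median prior degrees of freedom infinite), so its calls do not use a gene's own spread. P-values measure the spread between dishes of 1 population. Replicates differed beyond counting noise, by a chi-square of 8.43 to 33.58 per gene.

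Named genes were IGF2BP1 to IGF2BP3, the 15 largest rises and 10 largest falls of 1 sign in 3 pairs and free of overlap, and list members. Members and lists were chosen with earlier results of these data known, 4 lists after the values had been seen here. The code was tested on simulated data. Alternatives were DESeq2 1.42.0, other scalings, filters, thresholds and designs, and leaving out libraries. Immunoprecipitated RNA was not analysed here, and 2 genes are not reported by name.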

Additional observations from a re-analysis of the deposited data

Results flagged for a closer look

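For 38 of 434 tested genes that belong to the lists or to the largest rises and falls, the RQ minus WT difference itself differed between arsenite and control cells, by an interaction test in edgeR over the 12 RQ and WT libraries that was added after the data had been seen. Over all tested genes 146 passed an adjusted p of 0.05, and 159 with a robust estimate of the spread. The values below are the arsenite minus control differences on the log2 scale with their SE. They were above 0 for 36 of the 38, and 37 of the 38 also passed with the robust spread. The largest rises and falls and some lists were picked by control values that this test uses again. For those genes the sizes, directions and adjusted p-values are not independent of that choice.

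In the stress response list SESN2 went from -0.30 in control to 1.18 in arsenite, a difference of 1.45 ± 0.09 (Benjamini-Hochberg adjusted p of 7.33e-16, edgeR quasi-likelihood). DDIT4, an mTORC1 inhibitor, had a difference of 1.33 ± 0.08, STC2 of 0.85 ± 0.05, ATF3 of 0.56 ± 0.06, CEBPB of 0.56 ± 0.06 and GDF15 of 0.47 ± 0.05. DDIT3 had 0.42 ± 0.09, ATF4 0.38 ± 0.05 and CEBPG 0.28 ± 0.06. TRIB3 went from 0.99 to 1.81, a difference of 0.79 ± 0.08 (adjusted p of 1.29e-08, edgeR), but its arsenite pairs ranged from 1.53 to 2.11 and the adjusted p was 0.186 with the robust spread, so it is the exception named above. Of the amino acid lists, SLC38A2 had 0.43 ± 0.05, GOT1 0.26 ± 0.06 and SLC7A1 0.24 ± 0.06.

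Among the largest falls GEM went from -0.63 to 0.24, a difference of 0.84 ± 0.09 (adjusted p of 3.7e-08, edgeR), ITPRIP from -0.54 to 0.35 (0.87 ± 0.11), EGR1 from -0.55 to 0.06 (0.58 ± 0.05) and TUBA4A from -0.63 to -0.20 (0.40 ± 0.11). Other immediate-early and MAPK feedback genes were FOSB (0.53 ± 0.06), EGR3 (0.45 ± 0.10), AREG (0.42 ± 0.05), JUN (0.33 ± 0.06), JUNB (0.31 ± 0.05), DUSP6 (0.28 ± 0.05), EREG (0.24 ± 0.04), IER3 (0.20 ± 0.05) and EPHA2 (0.19 ± 0.05). The clock genes NR1D1, PER1 and BHLHE40 had 0.46 ± 0.07, 0.44 ± 0.07 and 0.31 ± 0.07.

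IGF2BP1, the transgene, went from 0.25 to 0.68, a difference of 0.41 ± 0.10 (adjusted p of 0.0178, edgeR), with arsenite pairs of 0.66, 0.72 and 0.66. Single members of other lists were HSPA1B, which shares reads with a near-identical copy (0.50 ± 0.07), VEGFA (0.40 ± 0.06), HERPUD1 (0.31 ± 0.06), ELF3 (0.29 ± 0.07), PLK3 (0.28 ± 0.06) and CHORDC1 (0.27 ± 0.06). The 2 differences below 0 were those of CCNE1 (-0.30 ± 0.07) and DKK1 (-0.29 ± 0.06).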

How the results depend on the processing

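The count of 304 calls fell to 68 with no replicate block, to 121 in all 24 libraries without it, to 140 in all 24 libraries with the block, and to 166 in DESeq2's Wald test, and it was 1221 without a fold threshold, 16 above a fold of 1.5 and 3 above a fold of 2. All 68 calls made without the block, 137 of the 140 and 164 of the 166 were among the 304. Y396E arsenite replicate 3, with 13897 genes with counts against at least 20850 in every other library, enters only the filter and the fits of 24 libraries. The count stayed within 1.5 times of 304 in the other alternatives, from 250 to 349 when libraries were left out, and it was 298 without mitochondrial genes and 304 with a robust spread, both chosen after seeing the data. Counts in arsenite and against S181E and Y396E moved by less than 1.5 times in their alternatives, the fits without the block included. Library totals lowered the median of all genes from -0.01 to -0.06. Over 21 alternatives none of the 28 genes of the IGF2BP family and the largest rises and falls changed direction, and the 15 largest rises kept their calls, while small changes of other list members did change sign, as in the ribosomal and ER lists. ZBED2 and TANC1 lost theirs in DESeq2 alone, SLC2A6 without the block alone, MFSD2A in 3 alternatives and NEURL1B in 5. The cause was not tested. Of 650 list medians under alternatives 46 moved beyond their spread between pairs. Genes under 10 CPM, such as ASNS, lie where these depths limit what could be tested.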
